A study of Saccharomyces cerevisiae with 11 samples.

Results

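J proteins are the co-chaperones that direct Hsp70 to its clients: each carries a J domain that stimulates ATP hydrolysis by Hsp70, so that the bound client is held. In budding yeast the cytosol and nucleus hold a set of such proteins, among them general ones that hand unfolded proteins to the Ssa Hsp70s and others tied to one place or task, such as the ribosome, clathrin coats or the peroxisome. The general ones are of particular background interest here, since yeast is a host in which the degradation of the human chloride channel CFTR at the endoplasmic reticulum (ER) membrane has been studied and found to need the J proteins Ydj1 and Hlj1.

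The 10 genes described were the ones annotated as SIS1, YDJ1, ZUO1, APJ1, SWA2, CAJ1, DJP1, XDJ1, JJJ1 and JJJ3, chosen by name and not by their values. All 10 of 10 were measured, each by 1 probe set, among 5449 S. cerevisiae genes tested. Affymetrix arrays measured RNA abundance in 11 samples, 4 of yeast with a plasmid (pRS426PPGK-CFTR-3HA) that expresses HA-tagged CFTR and 7 of yeast with a control vector (pRSGPD426) and no CFTR. The plasmid names point to a PGK promoter in one and a GPD promoter in the other, so that the groups differ by more than the CFTR gene. Both groups were grown to mid log phase in selective medium at 26 degrees, and their strain is not given in the sources used here. Levels are log2 of the deposited intensity, which has a mean of 1 on every array, and errors are SD over arrays.

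Some control arrays stood apart from the rest, and the results that rest on them are given with and without them. Vector replicates 1 and 2 were near copies, with an SD of 0.11 between their log2 levels across genes. Replicates 5 and 7, with 0.10, were as close, and replicate 6 was nearly so to both, with 0.13 and 0.12, while the median SD of the 21 vector pairs was 0.48. Such near copies may be technical repeats, in which case p-values measure less than the spread between cultures. Vector replicate 3 resembled the CFTR arrays (r across genes of 0.986 to 0.995) more than the remaining vector arrays (0.952 to 0.974). The titles carry sample codes, 3 to 5 for vector replicates 1 to 3, 7 to 10 for CFTR and 11 to 14 for vector replicates 4 to 7, so that a difference that follows the codes cannot be told apart from one of CFTR. All vector titles and no CFTR title are also marked as a re-analysis, which the titles do not explain. A difference that follows this mark cannot be told apart from one of CFTR either. The median intensity of an array lay between 0.219 and 0.272, and precision is limited by how many arrays there are.

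CFTR and vector arrays were compared to ask which J protein genes respond when yeast makes a foreign membrane protein. SIS1 was higher with CFTR, by 1.69-fold, and was the 1 of the 10 genes to pass the test (limma across all genes, adjusted p under 0.05). APJ1 and YDJ1 had differences of nearly the same size, 1.58-fold and 1.47-fold, that did not pass. ZUO1 differed by 0.10 on the log2 scale, and SWA2, CAJ1, DJP1, XDJ1, JJJ1 and JJJ3 had log2 differences between -0.34 and -0.09, none of which passed. Over all genes 0.496% were called higher and 0.422% lower. No J protein gene was called lower by limma, and none was lower at an unadjusted p under 0.05, while 3 were higher at that p, where 10.8% of all genes were lower and 7.3% higher. The median log2 difference of the 10 genes was -0.10, beside -0.04 for all genes tested, with 4 of 10 above 0.

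**Figure D1:**
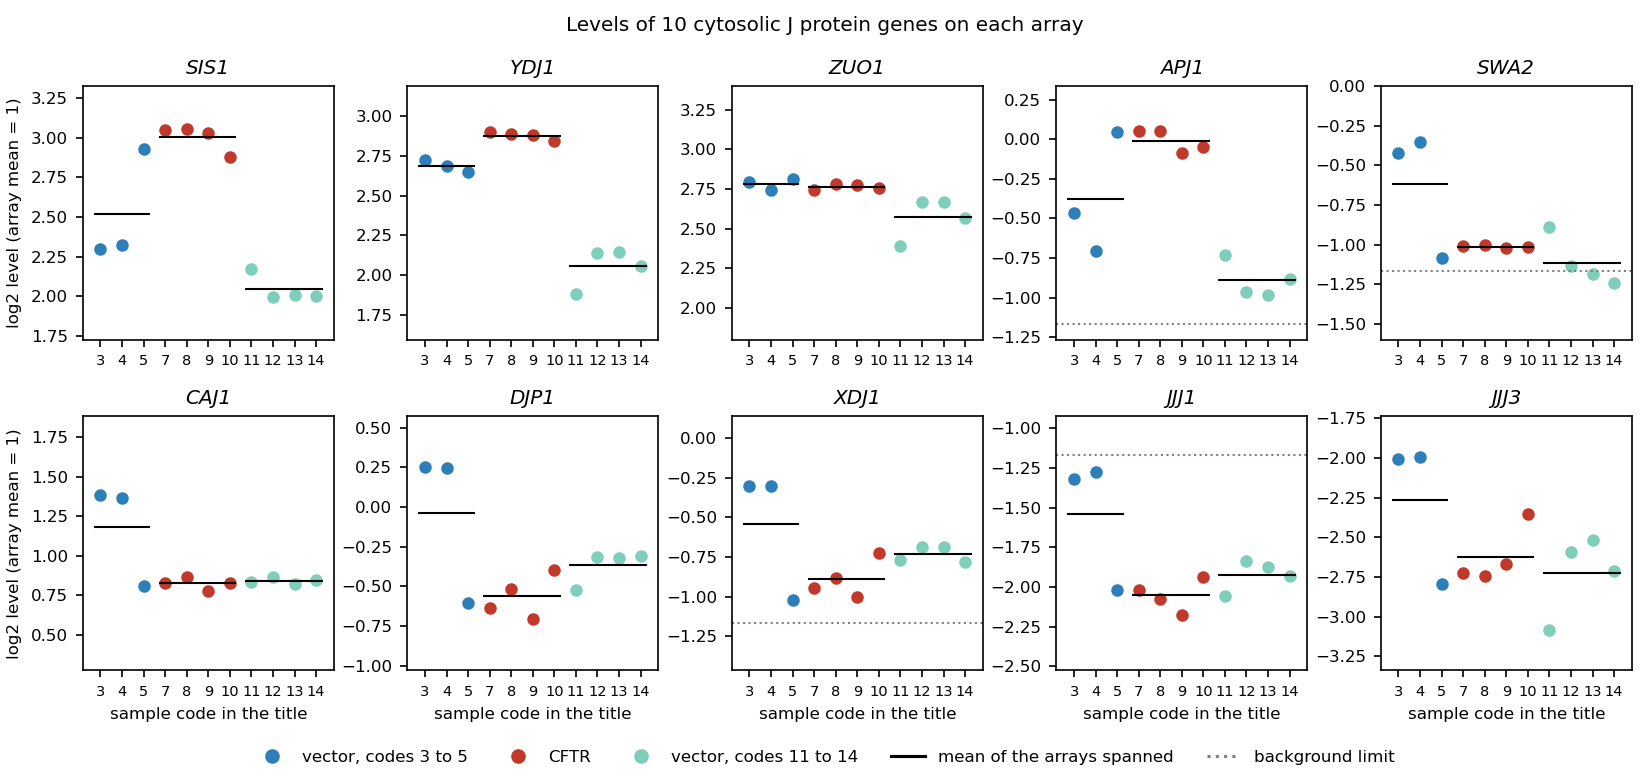
Log2 level (vertical axis, array mean 1, the same span of 1.6 in every panel) of each of the 10 genes on each array, in order of the sample code in the titles; black lines are means of the arrays they span, and the dotted line is the background limit where it falls within the panel. SIS1 and APJ1 are high on the CFTR arrays and on the vector array of code 5, and SWA2, CAJ1, DJP1, XDJ1, JJJ1 and JJJ3 are highest on the vector arrays of codes 3 and 4.

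Sis1 (YNL007C) is an essential J protein that works with the Ssa Hsp70s on aggregates and prions, and its gene is a target of the heat shock factor Hsf1. Its log2 levels on CFTR replicates 1 to 4 were 2.88, 3.05, 3.06 and 3.03. The 7 vector arrays ran from 2.0 to 2.93 with a median of 2.17. The CFTR arrays were thus all high, and the groups overlapped through 1 control alone: vector replicate 3, at 2.93, stood above CFTR replicate 1, while the other vector arrays reached no more than 2.32. The CFTR mean was 3.00 ± 0.08 (SD, n = 4) and the vector mean 2.25 ± 0.33 (SD, n = 7), a log2 fold change of 0.76 (SE 0.16, 95% interval 0.42 to 1.10; limma, adjusted p = 0.047). As these are bulk cultures, more RNA in each cell and more cells that make it cannot be told apart.

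The call of SIS1 was marginal. It did not pass once the near-copy pairs of control arrays were averaged to 1 array each (log2 fold change 0.72, adjusted p = 0.17; 0.65, adjusted p = 0.44 with replicates 5 to 7 as 1 array, an average chosen after seeing the data), nor when any 1 array other than vector replicate 3 was left out (0.71 to 0.80, adjusted p between 0.068 and 0.18). Without vector replicate 3 it was 0.87 (SE 0.09, adjusted p = 0.00038).

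Ydj1 (YNL064C) is the major general J protein of the cytosol, anchored to ER and other membranes by a farnesyl group. YDJ1 stood at 2.84, 2.90, 2.89 and 2.88 on CFTR replicates 1 to 4. On the vector arrays it ran from 1.88 to 2.72 with a median of 2.15. It was the 1 gene of the 10 in which all CFTR arrays lay above all vector arrays, vector replicate 3 (2.65) included, where 2.4% of all genes did so. After quantile normalization its groups overlapped as well (log2 fold change 0.46, limma adjusted p = 0.17), while after median centring they did not (0.63, adjusted p = 0.032). In no J protein gene did all CFTR arrays lie below, as they did in 3.34% of all genes. The log2 fold change was 0.55 (SE 0.16, 95% interval 0.20 to 0.91), and it missed the threshold over all genes (limma, adjusted p = 0.11). The vector arrays themselves fell into a high and a low set, at 2.65 to 2.72 for codes 3 to 5 and at 1.88 to 2.15 for codes 11 to 14.

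Apj1 (YNL077W) is a less abundant, stress-inducible relative of Ydj1. APJ1 stood at -0.05, 0.05, 0.05 and -0.08 on CFTR replicates 1 to 4. On the vector arrays it ran from -0.98 to 0.04 with a median of -0.73. As with SIS1, the array that made the groups overlap was vector replicate 3, here the highest of the vector arrays, with the next at -0.47. The log2 fold change was 0.66 (SE 0.17, 95% interval 0.28 to 1.04; limma, adjusted p = 0.086).

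Without vector replicate 3, SIS1, APJ1 and YDJ1 all passed and no other J protein gene did. The log2 fold change of APJ1 was then 0.78 (adjusted p = 0.0022) and that of YDJ1 0.61 (adjusted p = 0.040). In that fit 4.04% of all genes were called higher and 5.52% lower. Since that array had nearly the CFTR level of SIS1 and APJ1, leaving it out widens their difference by construction. SIS1, APJ1 and YDJ1 also passed without vector replicates 1 and 2, an alternative chosen after seeing the data. Their log2 fold changes were then 0.78, 0.69 and 0.71 (limma, adjusted p = 0.025, 0.036 and 0.017). There 12.3% of all genes were called higher and 6.11% lower. Vector replicates 1 and 2 had the highest YDJ1 levels of the vector arrays (2.72 and 2.69), so that leaving them out widens the difference of YDJ1 by construction.

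**Figure D2:**
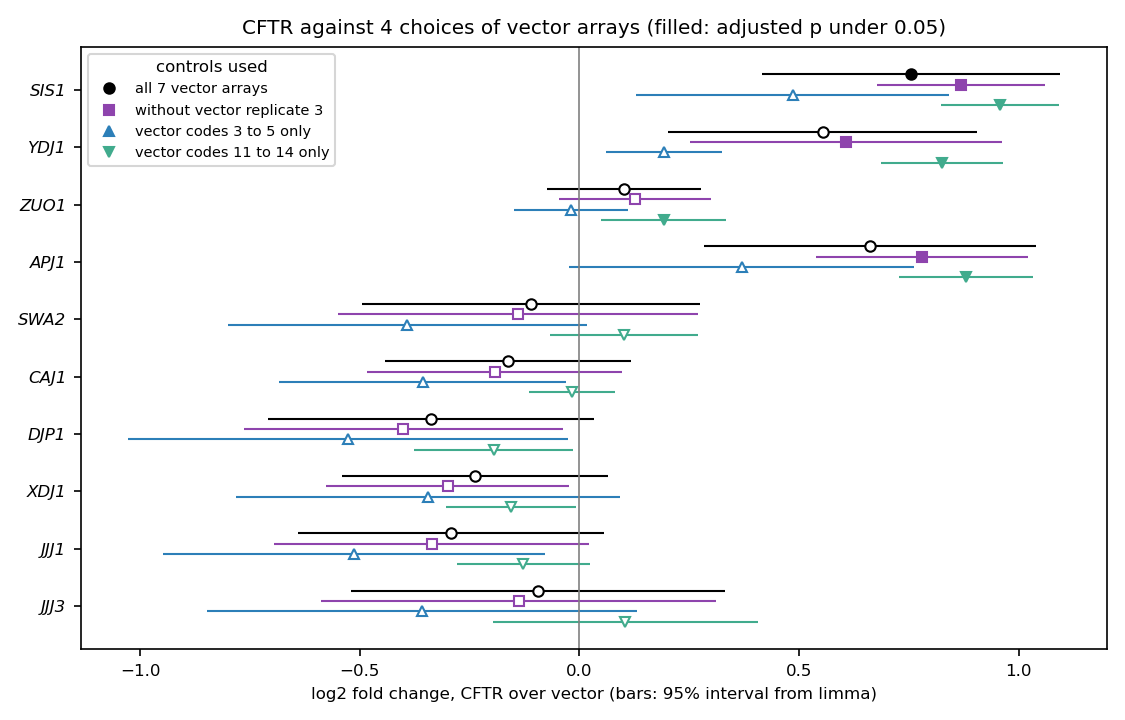
Log2 fold change of CFTR over vector (horizontal axis) for the 10 genes with 4 choices of vector arrays; bars are 95% intervals from limma, and filled symbols have an adjusted p under 0.05 over all genes. With vector codes 11 to 14 alone SIS1, YDJ1, APJ1 and ZUO1 are filled, and with vector codes 3 to 5 alone none is.

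The size of each difference depended on which control arrays were used, and the 2 comparisons that follow share the 4 CFTR arrays. Most arrays of codes 11 to 14, vector replicates 5 to 7, are near copies or nearly so. The SE and p against that set may thus measure less than the spread between cultures. Against the vector arrays of codes 11 to 14 alone, SIS1 was higher by 0.96 (SE 0.06, limma adjusted p = 2.8e-05), APJ1 by 0.88 (SE 0.07), YDJ1 by 0.83 (SE 0.06) and ZUO1 by 0.19 (SE 0.06, adjusted p = 0.035). These 4 were the J protein genes called, in a fit where 26.9% of all genes were called higher and 17% lower. In the same 4 genes all CFTR arrays lay above these vector arrays, as did those of 25.9% of all genes. Against the vector arrays of codes 3 to 5 alone the log2 differences were 0.49 (SE 0.15) for SIS1, 0.37 (SE 0.17) for APJ1, 0.19 (SE 0.06) for YDJ1 and -0.019 (SE 0.06) for ZUO1. No J protein gene was called by limma there, where 0.0184% of all genes were called higher and 0% lower, although 2 were higher and 3 lower at an unadjusted p under 0.05, beside 7.27% and 20.6% of all genes.

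In order of mean level, SIS1 stood lowest in the vector arrays of codes 11 to 14 (2.05 ± 0.09, SD, n = 4), then in those of codes 3 to 5 (2.52 ± 0.36, SD, n = 3), and highest in CFTR. Neither step of that order passed over all genes (limma, adjusted p = 0.055 between the control sets and 0.18 between CFTR and codes 3 to 5). APJ1 followed the same order, at -0.89 ± 0.12, -0.38 ± 0.38 and -0.01 ± 0.07, again without a passing step (adjusted p = 0.062 and 0.18). For YDJ1 the control sets did differ from each other, at 2.05 ± 0.12 and 2.69 ± 0.04. It was lower in codes 11 to 14 by a log2 difference of -0.63 (SE 0.08, limma adjusted p = 0.0064), which became -0.39 (adjusted p = 0.065) after median centring and -0.64 (adjusted p = 0.16) with near-copy arrays averaged (-0.68, adjusted p = 0.50 with replicates 5 to 7 as 1 array).

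YDJ1 was the 1 J protein gene called between the 2 sets of vector arrays, in a comparison that called 6.83% of all genes higher and 20.3% lower in codes 11 to 14. All 10 J protein genes had negative differences there, with a median of -0.42 beside -0.19 for all genes. The median of all genes moved to 0.06 on median centring, so that these differences are relative to a scale that itself differs between the sets, and with that centring 2 of the 10 differences were above 0. None was called higher by limma, and none was higher at an unadjusted p under 0.05, while 6 were lower at that p, beside 11.6% and 35.4% of all genes. Those of YDJ1, SIS1, APJ1 and ZUO1 had all arrays of codes 11 to 14 below all of codes 3 to 5, beside 27.8% of all genes. Vector replicate 3 had a large part in the number of calls: without it 9 of the 10, ZUO1 being the exception, were called lower in codes 11 to 14, in a comparison that then called 17.1% of all genes higher and 53.8% lower, with only the near copies of codes 3 and 4 left on the other side.

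Whether SIS1 and YDJ1 differed from vector by unequal amounts was tested on their log2 ratio within each array. The CFTR arrays had a mean ratio of 0.12 ± 0.06 (SD, n = 4) and the vector arrays one of -0.08 ± 0.28 (SD, n = 7). The difference of 0.20 did not pass an exact two-sided permutation test (p = 0.19, where the smallest p that 330 splits allow is 0.0030). A call for SIS1 and none for YDJ1 is thus no evidence that they responded differently, nor does the test show that they responded alike.

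Zuo1 (YGR285C) is a ribosome-bound J protein that forms the ribosome-associated complex with the atypical Hsp70 Ssz1 and works with the Ssb Hsp70s on nascent chains. ZUO1 varied least of the 10 genes, over a range of 0.42 (log2) on the 11 arrays. It stood at 2.75, 2.74, 2.78 and 2.77 on CFTR replicates 1 to 4 and from 2.39 to 2.81 with a median of 2.67 on the vector arrays, so that the CFTR arrays lay within the vector range. Its log2 fold change of 0.10 (SE 0.08, 95% interval -0.07 to 0.28) did not pass. Its partners had log2 fold changes of 0.11 (SE 0.12) for SSZ1, 0.07 (SE 0.10) for SSB1 and 0.02 (SE 0.08) for SSB2, with no call. SSB1 and SSB2 are near-identical genes whose probe sets may share signal.

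The remaining J proteins act at particular sites. Djp1 (YIR004W) assists protein import into peroxisomes, Swa2 (YDR320C) is the yeast auxilin that uncoats clathrin vesicles, and Jjj1 (YNL227C) works on late 60S ribosomal subunits in the cytoplasm. Jjj3 (YJR097W, also DPH4) takes part in the synthesis of diphthamide, a modified residue of elongation factor 2, and Xdj1 (YLR090W) is a relative of Ydj1. The task of Caj1 (YER048C) is less well defined.

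These 6 genes had a common layout over the arrays, in which vector replicates 1 and 2 were both above the other 9 arrays. DJP1 stood at 0.25 on both of these arrays and between -0.71 and -0.31 on the other 9. CAJ1 stood at 1.38 and 1.36, against 0.78 to 0.87 on the others. SWA2, at -0.42 and -0.36 against -1.24 to -0.89, showed the same layout. So did XDJ1 (-0.30 on both, against -1.02 to -0.68), JJJ1 (-1.32 and -1.27, against -2.17 to -1.84) and JJJ3 (-2.01 and -1.99, against -3.08 to -2.36). Of all genes tested 47.8% had these 2 arrays above the other 9, so that the layout is no property of these J proteins. The background limit was -1.17, the 95th percentile of probe sets not matched to exactly 1 S. cerevisiae gene. The levels of JJJ1 and JJJ3 lay below it on every array, and those of SWA2 did on 2 vector arrays. The sizes of their differences are thus uncertain.

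Against all 7 vector arrays the largest of these differences was that of DJP1, with a CFTR mean of -0.56 ± 0.14 (SD, n = 4) and a vector mean of -0.23 ± 0.34 (SD, n = 7), a log2 fold change of -0.34 (SE 0.17, 95% interval -0.71 to 0.03; limma, adjusted p = 0.32). JJJ1 had -0.29 (SE 0.16), XDJ1 -0.24 (SE 0.14), CAJ1 -0.16 (SE 0.13), SWA2 -0.11 (SE 0.18) and JJJ3 -0.09 (SE 0.20). Without vector replicates 1 and 2 these values lay nearer to 0, at -0.15 for DJP1, -0.11 for JJJ1, -0.10 for XDJ1 and -0.01 for CAJ1, and those of SWA2 and JJJ3 turned to 0.10 and 0.12. CAJ1 was nearly level over those 9 arrays.

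**Figure D3:**
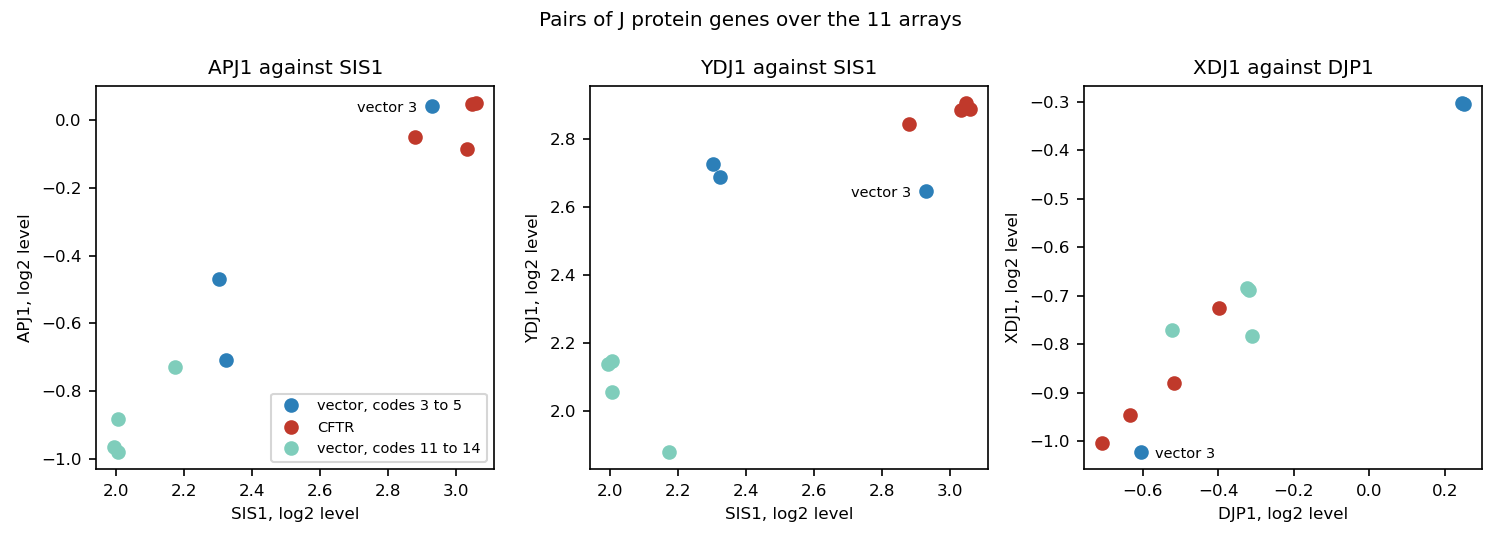
Log2 level of 1 J protein gene against another on the 11 arrays, each point 1 array. APJ1 follows SIS1 with vector replicate 3 among the CFTR arrays, YDJ1 is nearer to the CFTR arrays than SIS1 is on the vector arrays of codes 3 and 4, and in XDJ1 against DJP1 the 2 points at the upper right are vector replicates 1 and 2.

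Likeness between genes was measured by Pearson's r of log2 levels over the 11 arrays, among the 4111 genes above the background limit. It is given as a description with no test, because the arrays form clusters (CFTR, near copies, code sets) and r mostly measures the differences between those. The 3 genes most like SIS1 were FES1, a nucleotide exchange factor of Hsp70 (r = 0.996), HSP104, a protein disaggregase (0.987), and YER152C (0.987). The 3 most like APJ1 were HSP104 (0.985), SIS1 (0.981) and FES1 (0.980). With the 2 arrays farthest from the median left out, SIS1 and APJ1 still had r = 0.973, and SIS1 and FES1 0.994. YDJ1 was most like YKT6, a SNARE of vesicle fusion (0.989), CTF8 (0.986) and RPN13, a ubiquitin receptor of the proteasome (0.982), and with SIS1 it had 0.850 (0.803 without the 2 farthest arrays).

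ZUO1 was most like UTR2 (0.976), YOL014W (0.962) and NOP1, the nucleolar methyltransferase fibrillarin (0.953). DJP1 was most like TIM44, of the mitochondrial import motor (0.986), YGR054W (0.984) and LIP2 (0.984), and XDJ1 like YTA12, of a mitochondrial protease (0.984), YLH47 (0.983) and DJP1 (0.976). SWA2 was most like DIA2 (0.994), MPH1 (0.989) and VID27 (0.989). The genes most like CAJ1, ISC10 (0.993), DRN1 (0.991) and SSO2 (0.989), owed that to vector replicates 1 and 2, without which r was 0.264, 0.705 and 0.178.

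The other J proteins of yeast, those of mitochondria and the ER with HLJ1, CWC23 and JJJ2, gave 1 call among 13. Over all genes limma called 0.496% higher and 0.422% lower in that fit. With the near-copy pairs of control arrays averaged it called 1 of 5449 genes higher and 0 lower. MDJ1, the J protein of the mitochondrial matrix, stood at 1.33, 1.30, 1.35 and 1.22 on CFTR replicates 1 to 4. Its vector arrays ran from 0.04 to 1.02 with a median of 0.16, all below the CFTR arrays and with vector replicate 3 the highest. It was higher by 0.93 on the log2 scale (SE 0.17, limma adjusted p = 0.036). HLJ1, an ER membrane J protein that faces the cytosol, had a log2 fold change of 0.10 (SE 0.13, 95% interval -0.18 to 0.37). SCJ1, of the ER lumen, had 0.40 (SE 0.11, adjusted p = 0.10) and CWC23, linked to splicing, -0.39 (SE 0.10, adjusted p = 0.086), both without overlap between the groups. With MDJ1, 2 of the 13 had all CFTR arrays above all vector arrays and 1 had them below, beside 2.4% and 3.34% of all genes. The median of the 13 was -0.03 and that of all genes -0.04. Mean levels of JAC1, JEM1, JID1, JJJ2 and MDJ2 lay below the background limit, so that the sizes of their differences are uncertain. Without vector replicate 3 MDJ1 was higher and CWC23 was lower (-0.42, SE 0.10, limma adjusted p = 0.025), where 4.04% of all genes were called higher and 5.52% lower. Against codes 11 to 14 alone 5 of the 13 were called higher and 2 lower, beside 26.9% and 17% of all genes. Against codes 3 to 5 alone none of the 13 was called, where 0.0184% of all genes were called higher and 0% lower.

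**Figure D4:**
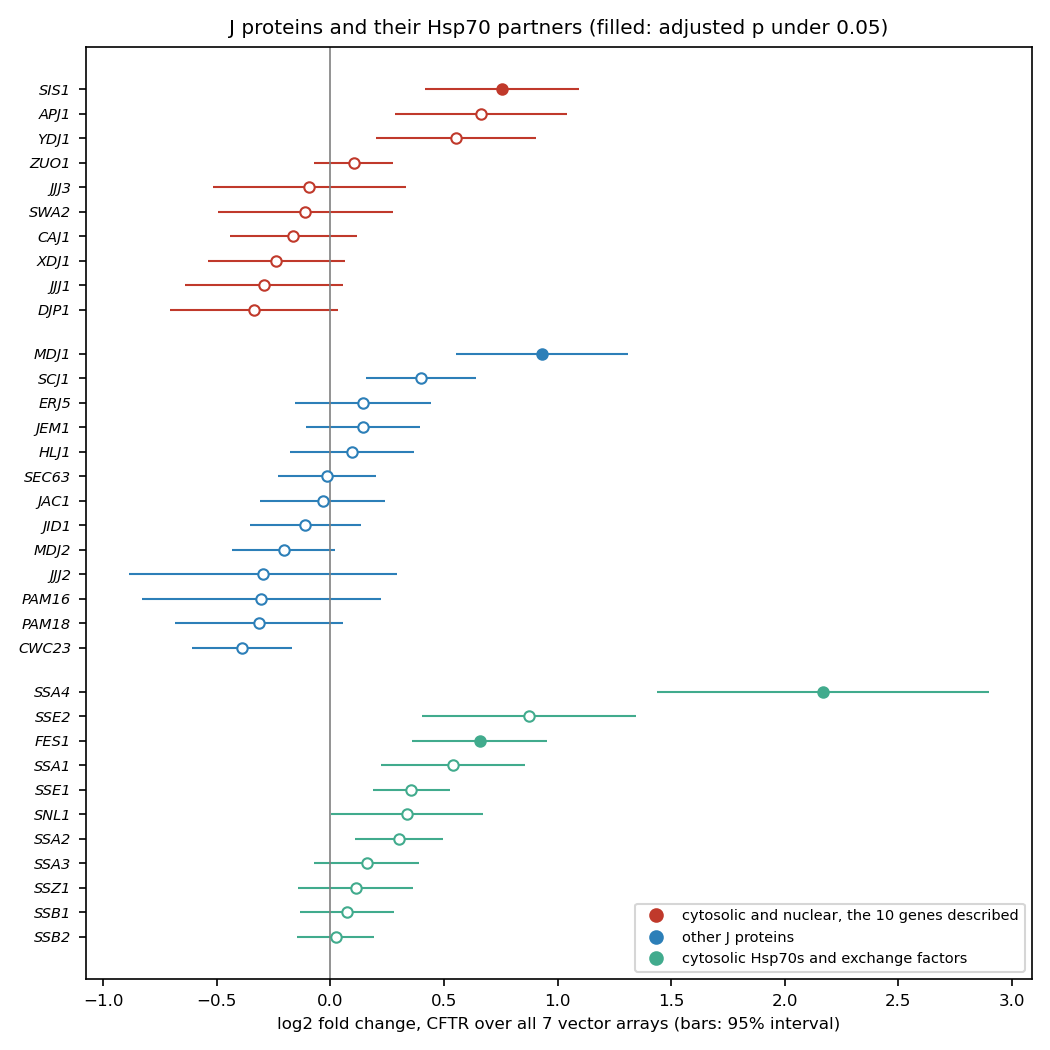
Log2 fold change of CFTR over all 7 vector arrays (horizontal axis) for the 10 cytosolic and nuclear J protein genes, 13 other J protein genes, and 11 cytosolic Hsp70s and exchange factors; bars are 95% intervals from limma and filled symbols have an adjusted p under 0.05. SIS1, MDJ1, SSA4 and FES1 are filled, and the intervals of APJ1 and YDJ1 lie above 0.

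J proteins act through Hsp70, and the Hsp70s with their exchange factors gave 2 calls among 11. Both were higher, where 0.496% of all genes were called higher and 0.422% lower. SSA4, the stress-inducible Ssa Hsp70, was 4.50-fold higher (log2 fold change 2.17, SE 0.34, limma adjusted p = 0.018) and FES1 was higher by 0.66 (SE 0.14, adjusted p = 0.047). SSE1, an Hsp110 exchange factor, had 0.36 (SE 0.08, adjusted p = 0.054). SSE2, its stress-induced paralog, had 0.87 (SE 0.22, adjusted p = 0.079). SSA1, SSA2 and SSA3 had 0.54 (SE 0.15), 0.30 (SE 0.09) and 0.16 (SE 0.11) without passing, and SSA1 and SSA2 are near-identical. All 11 had values above 0, with a median of 0.34. At most 1 of the 2 calls remained with the near-copy pairs averaged, where limma called 1 of 5449 genes higher and 0 lower. Calls rose to 6 without vector replicate 3, where 4.04% of all genes were called higher. They rose to 8 without vector replicates 1 and 2 or against codes 11 to 14 alone, beside 12.3% and 26.9% of all genes. Limma called none against codes 3 to 5 alone, where 6 were higher at an unadjusted p under 0.05, beside 7.27% of all genes.

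A list of the Hsf1 heat shock regulon held 20 genes, without the 10 J protein genes and with HSF1 itself. Of the 20, 9 were higher and none lower by limma, beside 0.496% and 0.422% of all genes. Their median was 0.68. None was lower at an unadjusted p under 0.05, where 10.8% of all genes were. Apart from SSA4, FES1 and MDJ1, examples were CPR6, an Hsp90-binding cyclophilin (0.71, SE 0.09), HSP82, an Hsp90 (0.96, SE 0.16), and MBF1 (0.53, SE 0.10). Vector replicate 3 had 2.62 in FES1, where CFTR had 2.69 ± 0.07 (SD, n = 4) and the vector group 2.03 ± 0.28 (SD, n = 7), the place it also had in SIS1 and APJ1. HSF1, the gene of the factor itself, differed by -0.16 (SE 0.10, adjusted p = 0.42). Without vector replicate 3, without vector replicates 1 and 2, or against codes 11 to 14 alone 18 of the 20 were higher. The shares of all genes called higher were 4.04%, 12.3% and 26.9% in that order. At most 1 of the 20 was called with the near-copy pairs averaged, where limma called 1 of 5449 genes higher and 0 lower. Against codes 3 to 5 alone limma called none, with 19 higher at an unadjusted p under 0.05, beside 7.27% of all genes. This list was drawn up with earlier results of these data known and supports nothing by itself.

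The pathways of the site-specific J proteins gave no call by limma with all 11 arrays. None of 14 measured genes of peroxisomal import, the pathway of DJP1, passed, with 1 higher and 3 lower at an unadjusted p under 0.05, among them PEX15 (-0.33, SE 0.09), PEX17 (0.33, SE 0.10) and PEX7 (-0.27, SE 0.09). Without vector replicate 3, PEX17 was higher and PEX15, PEX7 and PEX2 were lower (limma, adjusted p between 0.017 and 0.049). In that fit 4.04% of all genes were called higher and 5.52% lower. PEX17 lay below the background limit on every array, so that the size of its difference is uncertain. Mean levels of PEX4, PEX5 and PEX13 also lay below that limit. None of 12 genes of clathrin coats and adaptors passed (none higher and 1 lower at an unadjusted p under 0.05). Clathrin heavy chain CHC1, the substrate of Swa2 and Hsp70, had -0.31 (SE 0.16). None of 9 genes of cytoplasmic 60S maturation passed (none higher and 1 lower at that p). The largest difference among them was that of ARX1, at -0.47, and REI1, which works with Jjj1, had -0.20 (SE 0.17). None of 6 genes of diphthamide synthesis passed, with none at an unadjusted p under 0.05 in either direction. The medians of these lists were -0.11, -0.11, -0.05 and -0.12 in the order given. URA3, the marker gene of the plasmids by their names, had a CFTR mean of 3.59 ± 0.08 (SD, n = 4) and a vector mean of 3.26 ± 0.37 (SD, n = 7; limma, adjusted p = 0.34).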

How the data were processed

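Per the labels' protocols, hot phenol RNA of 11 yeast samples was turned into biotin-labelled cRNA (3′ IVT kit) for Affymetrix arrays. The deposited values are linear intensities with an array mean of 1, as the file itself shows; how background was corrected, probes were summarised and with which software is not stated in the labels. All 11 columns were used. The platform annotation gave each probe set its gene, matched by gene ID to the table of assembly R64; 5498 matched 1 gene, and the brightest per gene was kept, which left 5449 genes. Of the 10 J protein genes all matched. The values were log2-transformed with no floor and tested in R 4.3.3 by limma 3.58.1 (linear model, trended eBayes; Benjamini-Hochberg over all genes, threshold 0.05), on all 11 arrays or, between code sets, on the 7 vector arrays. The fit was tested on simulated data with independent noise on every array. These held no near copies or code sets, so that the test does not bear on them. CFTR replicate numbers follow the order of deposition and pair nothing.

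The J protein genes, lists, code sets and alternatives were chosen with earlier results of these data known. The genes named were the 10, the up to 4 with the smallest p of each other list, the 3 most like each, SSA1 to SSA4, HSF1 and URA3; others (SSB1, SSB2, SSZ1, HLJ1, REI1) were named for their role. Alternatives were quantile normalization, median centring, no trend, robust eBayes, weighted arrays, dropping dim genes, the mean of probe sets, averaged near copies (replicate 6 added after seeing the data), a floor, either code set alone and leaving out arrays. Promoter and protein sequences were not analysed here.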

Additional observations from a re-analysis of the deposited data

Results flagged for a closer look

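Among 20 sets of values (10 genes in each of 2 groups), 2 held an array set apart from its group by Dixon's test, which flags about 1 in 20 sets by chance. Both were in SIS1. Vector replicate 3, at 2.93 on the log2 scale, was the highest of the 7 vector arrays, with the next at 2.32. CFTR replicate 1, at 2.88, was the lowest of the 4 CFTR arrays, with the next at 3.03. Without vector replicate 3 the log2 fold change of SIS1 was 0.87 (limma, adjusted p = 0.00038), and without CFTR replicate 1 it was 0.80 (adjusted p = 0.076).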

How the results depend on the processing

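Against 27 genes higher and 23 lower with CFTR, quantile normalization gave 116 and 84, median centring 105 and 68, array weights 1941 and 1369 (their estimation stopped before convergence), averaged near copies 1 and 0 (also with vector replicates 5 to 7 as 1 array), vector codes 3 to 5 alone 1 and 0, codes 11 to 14 alone 1466 and 927, no vector replicates 1 and 2 669 and 333, and leaving out each array 2 to 220 and 0 to 301. The cause was not tested. Of the J protein genes, the 1 called higher became 2, 3 and 5 with quantile normalization, median centring and array weights, 4 against codes 11 to 14, 3 without vector replicates 1 and 2, 0 with no intensity trend, with near copies averaged either way, against codes 3 to 5 and with values floored at 0.25, and 0 to 3 leaving out each array. Array weights called 3 lower, and the range leaving out each array was 0 to 0. SIS1 kept its direction in all 24 alternatives, between 0.49 and 1.0, and passed in 9. ZUO1 turned to -0.019 against codes 3 to 5. SWA2 turned to 0.16 with array weights, 0.10 against codes 11 to 14 and 0.10 without vector replicates 1 and 2, and JJJ3 to 0.10 and 0.12 in the last 2. The difference in the SIS1 to YDJ1 ratio passed in none of its alternatives (0.14 to 0.26 leaving out each array).

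Between the vector sets, 372 genes higher and 1104 lower in codes 11 to 14 became 677 and 831 with quantile normalization, 721 and 545 with median centring, 1056 and 3197 with array weights, 12 and 2 with averaged near copies, 15 and 1 with replicates 5 to 7 as 1 array, and 70 to 934 and 77 to 2932 leaving out each array. The 1 J protein gene lower became 3, 0, 9, 0 and 0 in these settings and 1 to 9 leaving out each array (9 without vector replicate 3); 0 were higher throughout. With median centring ZUO1 turned to 0.034 and XDJ1 to 0.057, and with quantile normalization XDJ1 to 0.065. No paired analysis was possible because the CFTR labels carry no replicate numbers. Dim signal limits JJJ1, JJJ3, SWA2 and PEX17, and also JAC1, JEM1, JID1, JJJ2, MDJ2, PEX4, PEX5 and PEX13.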

Other observations

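Djp1 and Xdj1 are known to be recruited by receptors of the TOM complex, the entry gate of mitochondria. None of its 8 genes passed with all 11 arrays by limma. At an unadjusted p under 0.05 none was higher and 1 lower, beside 7.3% and 10.8% of all genes. All 8 values were below 0, with a median of -0.21 beside -0.04 for all genes. Against vector codes 3 to 5 alone the median was -0.05 beside -0.15 for all genes, with 2 of the 8 above 0. Between the vector sets 6 of the 8 were higher in codes 11 to 14, with a median of 0.20 beside -0.19 for all genes. With all 11 arrays TOM71, a receptor, had -0.42 (SE 0.09, limma adjusted p = 0.054). It was the 1 of the 8 genes with all CFTR arrays below all vector arrays, as in 3.34% of all genes. TOM22, TOM70 and TOM5 had -0.23 (SE 0.11), -0.33 (SE 0.17) and -0.24 (SE 0.12). Without vector replicate 3 TOM71 was lower by limma (-0.44, SE 0.09, adjusted p = 0.014), where 5.52% of all genes were called lower. Of the nascent polypeptide-associated complex, which like Zuo1 binds at the ribosome's exit, none of 3 genes passed with all 11 arrays. At an unadjusted p under 0.05, 1 was higher and none lower, beside 7.3% and 10.8% of all genes. EGD2 had 0.19 (SE 0.08), EGD1 0.09 (SE 0.11) and BTT1 -0.18 (SE 0.22). The CFTR mean of BTT1, -1.27, lay below the background limit.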
